A study of Mus musculus with 12 samples.

Results

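The genes described here are 10 cadherins of the classical type I and type II classes, CDH2, CDH4, CDH6, CDH7, CDH8, CDH9, CDH10, CDH11, CDH12 and CDH20. They were chosen by name from the 13957 gene symbols of the authors' table. Of the 10 genes, 9 were listed at 1 site or both, 8 were listed at both sites, CDH12 was listed below the lesion alone, and CDH9 was listed at neither site. RNA was sequenced from male mice aged 4 months that carry human ApoE4 in place of the mouse gene. All of them had a contusion of the spinal cord at thoracic vertebra 9. The 4 groups, of 3 libraries each, were synj1+/+ (both synj1 alleles normal) and synj1+/- (1 synj1 allele inactive), each sampled 14 days after injury in the cord segment above the lesion and in the segment below it. Uninjured and ApoE3 animals were not analysed here, so every value belongs to injured ApoE4 cord.

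Classical cadherins are single-pass membrane proteins that hold neighboring cells together. Their extracellular repeats bind calcium and pair with cadherins on the next cell, and their cytoplasmic tails bind β-catenin and p120-catenin, which connect the junction to α-catenin and actin and control how long the cadherin stays at the surface. In the nervous system CDH2 (N-cadherin) is found at the junctions of neural cells and at synapses. The type II cadherins mark particular neuron groups, axon tracts and target layers, and several take part in the matching of axons with their partners. CDH8 is a type II cadherin of subsets of central and sensory neurons, while CDH11 is known first from mesenchymal cells and osteoblasts.

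The values need a word before they are compared. The table gives 1 value for each gene, site and genotype, and each value combines 3 libraries. The spread between libraries could therefore not be computed, and the differences given here carry no test. The table also lists the authors' own p-values and q-values, which were not used here. The lowest value in the table is exactly 1, and the values were read as FPKM (fragments per kilobase of transcript, scaled to library size) plus 1. A difference is given as the log2 of the value in the group labelled synj1+/- over that in the group labelled synj1+/+, and a gene is counted as higher or lower where its log2 difference, before rounding, reaches a limit that rounds to 0.32 in that direction. The table-wide median value in synj1+/+ cord above the lesion climbed from 20.4 for genes with 1 curated RefSeq transcript to 43.2 with 2, 77.4 with 3 or 4, and 191 with 5 or more. CDH8 has 5 such transcripts, CDH7 has 3, CDH4 and CDH10 have 2 and the other cadherins have 1. For that reason no order of levels between genes is read here, only the order of a gene's own values.

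SYNJ1, the phosphoinositide phosphatase that the genotype alters, did not follow the label. Its value above the lesion was 1905 in synj1+/+ and 2404 for the label synj1+/-, a log2 difference of 0.34. The values below were 1847 and 2593, a log2 difference of 0.49. These values run opposite to the label, although the study's methods state that the mice were genotyped by PCR, and each direction that follows is stated for the group labelled synj1+/-.

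Several of the genes are neighbors in stretches of the genome with no other coding gene (GENCODE M21 on GRCm38). CDH8 spans 392 kb on the minus strand of chromosome 8 (99024471 to 99416471), and CDH11 is the next coding gene on that chromosome (102632095 to 102785642, minus strand), after 3.22 Mb with 0 coding genes. On chromosome 15, CDH6, CDH9, CDH10 and CDH12 follow each other with 0 coding genes in any gap, and the gaps measure 3.56, 1.96 and 1.44 Mb. CDH18, another type II cadherin, comes 0.959 Mb after CDH12 on the same chromosome, again with 0 coding genes between them. CDH20 (104768529 to 104995481) and CDH7 (109982431 to 110140157) are both on the plus strand of chromosome 1, 4.99 Mb apart with 20 coding genes between them. CDH4 spans 456.9 kb on chromosome 2. CDH12 has the longest span of the 10, 1140.3 kb, and CDH9 the shortest, 128.3 kb.

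CDH8 is the gene of this group with the largest genotype difference below the lesion, so the 250 bases before its RefSeq start are printed here (GRCm38.p6, chr8:99416472-99416721, minus strand, written 5′ to 3′ with the gene). The window overlaps 0 bases of the exons of CDH8 in GENCODE. Capitals mark the letters of a GC box (GGGCGG), 80 to 75 bases before the start, and of a CCAAT box (CCAAT), 19 to 15 bases before it.
CDH8: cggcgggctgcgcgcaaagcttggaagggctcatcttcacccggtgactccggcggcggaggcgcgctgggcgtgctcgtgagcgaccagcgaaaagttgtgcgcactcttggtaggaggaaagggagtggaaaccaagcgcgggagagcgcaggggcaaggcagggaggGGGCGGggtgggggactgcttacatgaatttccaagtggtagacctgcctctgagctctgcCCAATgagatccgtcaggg
Promoters of 7 of the 10 genes were matched in the RefSeq table, 9 windows in all because CDH7 has 3. The letters GGGCGG, sought on both strands, are in 2 of the 9 windows (CDH8 and CDH6) and in 32.7% of the 32851 promoters of the table. CCAAT is in 4 of the 9 windows and 33.8% of all promoters. TATAAA is in 0 of the 9 windows and 12.4% of all promoters. The CDH8 window holds 64.4% G and C and 20 CpG pairs, where the medians over all promoters are 52.4% and 6. The CDH10 window is at the other end, with 36.8% G and C and 2 CpG pairs. All windows are set by RefSeq starts, and several are not upstream of the gene in GENCODE. The CDH10 window begins at 18820079, inside a gene span that begins at 18818947. The windows of CDH7 and CDH12 also lie inside their gene spans, and that of CDH9 does so in part. Overlap with exons was looked up for the printed sequences only. These matches describe letters in a window, and the RNA values do not test them.

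Among the 33 pairs of windows from different genes, the longest run of identical bases was the one of CDH6 and CDH9, neighbors on chromosome 15 of which 1 was listed in the table and 1 was not. Capitals mark the 15 shared bases. They lie 18 to 4 bases before the start of CDH6 (chr15:13173676-13173704, minus strand) and 209 to 195 bases before that of CDH9 (chr15:16728695-16728726, plus strand). On either strand the run is in 2 of the 32851 promoters.
CDH6: cctcccacttcATTCACTTGCAAATCagt
CDH9: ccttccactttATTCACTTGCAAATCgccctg

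CDH8 showed the largest genotype difference of the 9 listed cadherins of the chosen group, with CDH4 close behind, and both were found below the lesion. The value of CDH8 there was 55.6 in synj1+/+ and 75 in the group labelled synj1+/-, which is 1.35-fold higher (log2 difference 0.43). Above the lesion the values were 77.1 and 85.7, 1.11-fold higher (log2 difference 0.15), which is within the limit of 0.32. CDH8 was thus higher in the group labelled synj1+/- at both sites. In rank, CDH8 stood 409 from the top of the 12338 genes below the lesion and 2316 from the top of the 13647 genes above it. In bulk tissue, more cells of a kind and more RNA in each cell cannot be told apart.

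CDH4 (R-cadherin, a type I cadherin close to CDH2 and known from the retina and brain) ran in opposite directions at the sites. Above the lesion its value was 17 in synj1+/+ and 13.8 in the group labelled synj1+/-, 1.23-fold lower (log2 difference -0.30) and just within the limit. Below the lesion the values were 12.8 and 17, 1.33-fold higher (log2 difference 0.42). The difference below minus that above was 0.71 on the log2 scale, which stood 158 from the top of 12023 genes listed once at both sites. CDH4 and CDH8 were the 2 genes of the group counted as higher below the lesion.

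**Figure D1:**
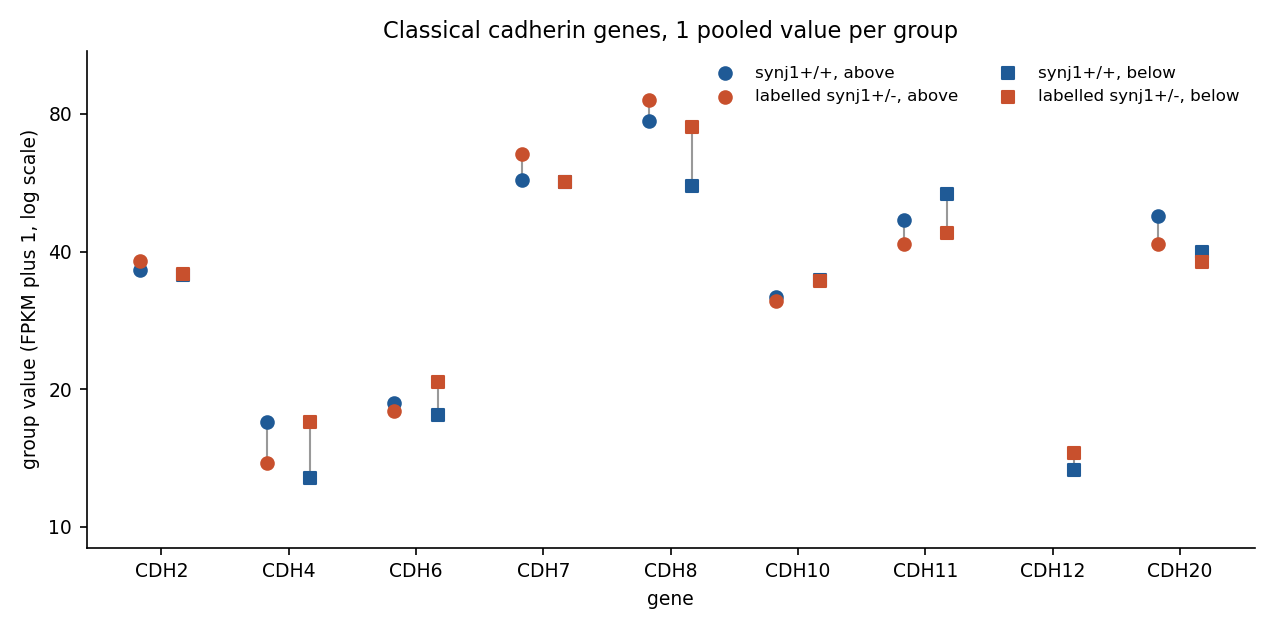
Values of the 9 listed cadherins of the chosen group (FPKM plus 1, log axis). Circles are above the lesion and squares below it, blue for synj1+/+ and orange for the group labelled synj1+/-. Each point is 1 pooled value of 3 libraries and carries no error bar. The gap between the squares is widest for CDH8 (55.6 and 75) and CDH4 (12.8 and 17), where the orange square is the upper one, and for CDH11 (53.5 and 44.0), where it is the lower one.

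The other type I cadherin of the chosen genes had nearly the same value in all 4 groups. CDH2 had values of 36.4 and 38.1 above the lesion and of 35.5 and 35.8 below it, in the order synj1+/+ and then the group labelled synj1+/-. CDH2, on chromosome 18, had log2 differences of 0.06 and 0.01, and the highest of the 4 values was 1.07-fold the lowest.

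CDH11 was lower in the group labelled synj1+/- at both sites, within the limit each time. Its values were 46.8 and 41.5 above the lesion (log2 difference -0.18). Below the lesion they were 53.5 and 44.0, 1.22-fold lower (log2 difference -0.28). CDH11 and CDH8, next to each other on chromosome 8, thus had log2 differences of opposite sign at each site.

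The remaining type II cadherins of the chosen group stayed within the limit. CDH6, known from the developing kidney and from neurons, had values of 18.7 and 17.9 above the lesion (log2 difference -0.07) and of 17.6 and 20.7 below it (0.24). CDH7 had 57.5 and 65.5 above the lesion (0.19) and 56.8 and 56.9 below it (0.00). CDH20, on chromosome 1 like CDH7, had 47.8 and 41.5 above the lesion (-0.20) and 40.0 and 38 below it (-0.08). CDH7 and CDH20 therefore differed in sign above the lesion. CDH10 was nearly level, with 31.9 and 31.2 above the lesion (-0.03) and 34.6 and 34.5 below it (0.00). CDH12, known from brain, had 13.3 and 14.5 below the lesion (0.13).

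As a group, the cadherins had medians close to those of all genes, and 2 of them passed the limit, both below the lesion. Above the lesion, 0 of 8 were higher and 0 of 8 lower past the limit, where 4.18% of all listed genes were higher and 7.45% lower. Below the lesion, 2 of 9 were higher and 0 of 9 lower, against 8.06% higher and 11.5% lower among all genes. The median log2 difference of the cadherins was -0.05 above and 0.01 below, and that of all genes was 0.00 and 0.01. In the difference below minus above, 1 of 8 cadherins (CDH4) was higher and 0 lower, where 9.99% of all genes were higher and 10% lower. The count of 2 of 9 was not tested against the share of all genes.

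**Figure D2:**
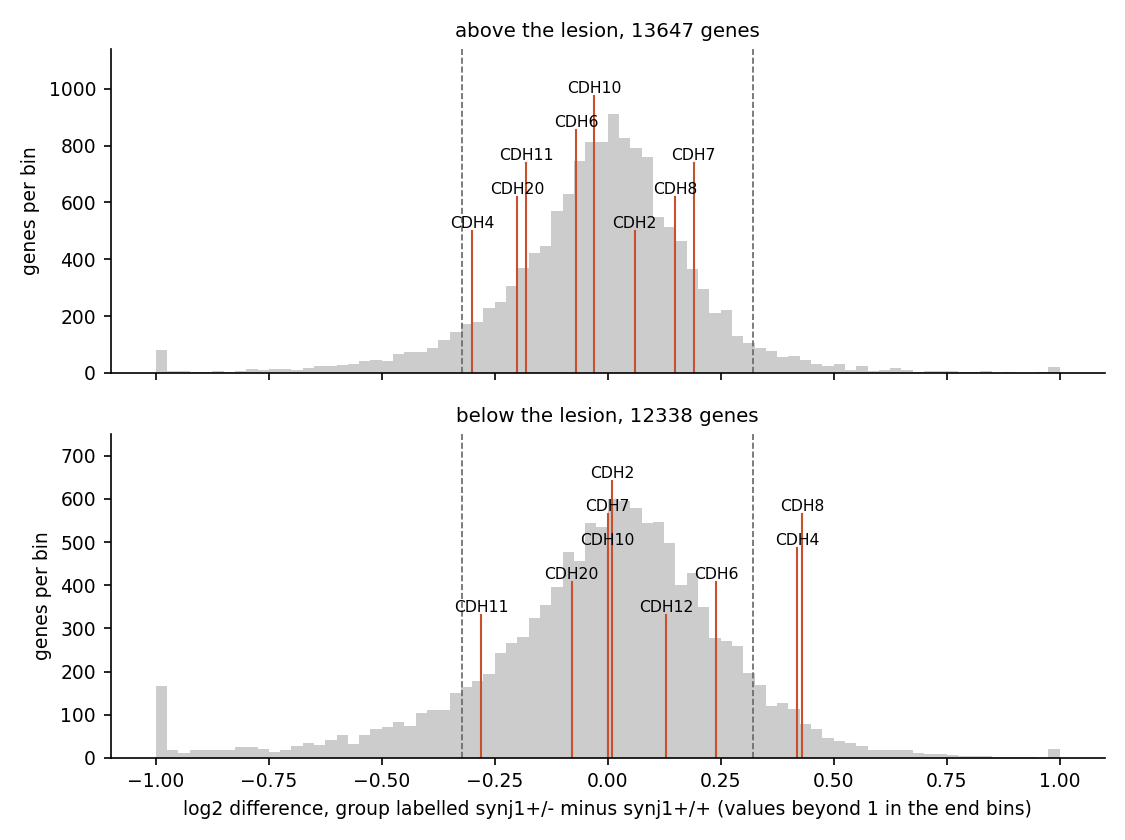
Histograms of the log2 difference (group labelled synj1+/- minus synj1+/+) of all genes above the lesion (13647 genes, upper panel) and below it (12338 genes, lower panel). Orange lines mark the chosen cadherins (line heights only separate the names) and dashed lines mark the limit of 0.32. Above the lesion all 8 cadherins lie between the dashed lines, and below it CDH4 and CDH8 lie past the right-hand one.

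The background depends on which genes are taken, and 2 further sets were looked at after the values had been seen. Among the 6589 genes whose values below the lesion lay between 10 and 100, as all 9 cadherins did, 6.71% were higher and 9.83% lower, and CDH8 stood 172 from the top. All 10 cadherins span more than 100 kb. Of 1782 listed genes below the lesion with such a span in GENCODE, 12.1% were higher and 8.36% lower, with a median log2 difference of 0.05. Above the lesion, 3.56% of 2048 such genes were higher and 8.59% lower. Long genes were therefore counted as higher below the lesion more often than the table as a whole, and 2 of 9 cadherins is to be read against that share as well.

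**Figure D3:**
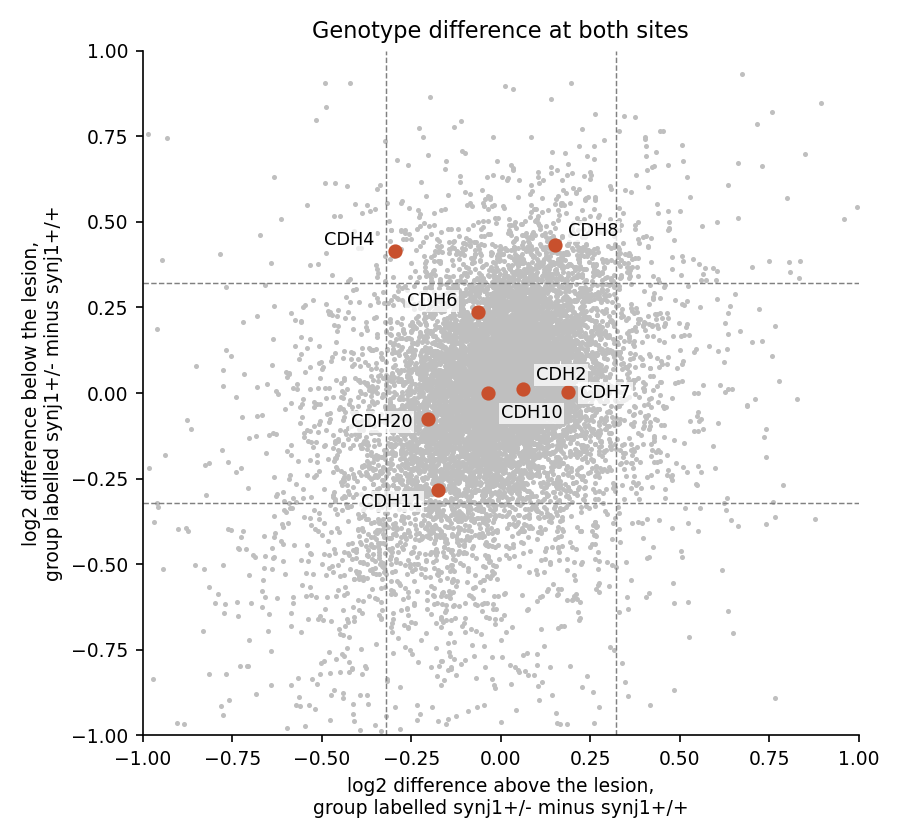
Log2 difference (group labelled synj1+/- minus synj1+/+) above the lesion on the x axis and below it on the y axis, for genes listed once at both sites (grey, those beyond 1 on either axis lie outside the frame) and for 8 classical cadherins (orange). Dashed lines mark the limit of 0.32. CDH8 lies in the upper right at 0.15 and 0.43, CDH4 in the upper left at -0.30 and 0.42, and CDH11 in the lower left at -0.18 and -0.28.

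The sites were next compared within each genotype. Both may have been normalized separately, so the log2 ratio of the value below to that above was set relative to the median gene, whose own shift was -0.001 in synj1+/+ and 0.022 in the group labelled synj1+/-. In synj1+/+ cord, CDH8 was lower below the lesion than above it, with a log2 ratio of -0.47, and CDH4 likewise, with -0.41. These were 2 of 8 cadherins counted as lower and 0 as higher, where 7.77% of all genes were lower and 10.2% higher. In the group labelled synj1+/-, 0 of 8 passed the limit in either direction, where 5.66% of all genes were higher and 5.21% lower. CDH8 had a log2 ratio of -0.21 there and CDH4 of 0.28. The other cadherins had ratios from -0.26 (CDH20) to 0.19 (CDH11) in synj1+/+ and from -0.23 (CDH7) to 0.19 (CDH6) in the group labelled synj1+/-. The median of the 8 was -0.07 and -0.02.

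Put in order, the 4 values of CDH8 ran from 85.7 (labelled synj1+/-, above) through 77.1 (synj1+/+, above) and 75 (labelled synj1+/-, below) to 55.6 (synj1+/+, below). The highest was 1.54-fold the lowest. The value of synj1+/+ below the lesion stood apart from the other 3, which lay between 75 and 85.7. For CDH4 and CDH6 the highest and the lowest value were both below the lesion, the highest under the label synj1+/- and the lowest in synj1+/+, with 1.33-fold and 1.18-fold between them. The genotype difference below the lesion and the site difference in synj1+/+ both use the value of synj1+/+ below, so they are not independent for CDH4 or CDH8.

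The 5 genes whose pair of genotype differences lay nearest to that of CDH8 (0.15 above, 0.43 below), among 9285 genes with all 4 values of at least 10, were TUNAR, HPCAL4, GRIN2D, HOXB7 and SNCAIP. TUNAR, a long transcript known from neural cells, was nearest, with 0.15 above and 0.44 below. HPCAL4, a neuronal calcium sensor, had 0.16 and 0.44. GRIN2D, an NMDA receptor subunit, had 0.15 and 0.42. HOXB7, a homeobox factor of the body axis, had 0.16 and 0.45, and SNCAIP, a binding partner of α-synuclein, had 0.15 and 0.45. Likeness here rests on 2 differences only, and 251 of the 9285 genes (2.7%) were higher by more than 1.1-fold above and past the limit below.

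Cell type markers also differed with the genotype label, and their levels are given beside the cadherins. Among all genes, 8.06% were higher and 11.5% lower past the limit below the lesion, and 4.18% and 7.45% above it. Of 18 neuron markers, 14 were listed below the lesion. All 14 had a log2 difference above 0, and 7 were past the limit, with a median of 0.28. Examples are SYT1 of synaptic vesicles (332 and 481, log2 difference 0.54) and SLC32A1, the vesicular GABA and glycine transporter (168 and 229, 0.45). The sum of the listed neuron markers was 9670 in synj1+/+ and 12200 under the label synj1+/-. A sum mostly follows the genes with the highest values, here SNAP25, which alone had 5270 and 6930. The same holds for the list sums given below. Above the lesion 17 were listed, 0 were higher and 1 lower, the median was 0.07, and the sums were 11900 and 13300. The part of this shift in the CDH8 and CDH4 differences was not tested.

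Fibroblast and meningeal markers lay the other way. Below the lesion 8 of 8 were lower in the group labelled synj1+/-, with a median log2 difference of -2.76 and summed values of 1300 and 379. DCN, the matrix proteoglycan decorin, had 139 and 19.8 there (-2.81), and COL1A2, a chain of fibrillar collagen, had 75.7 and 11.6 (-2.71). Above the lesion 6 of 7 listed were lower, with a median of -0.52 and sums of 138 and 102. CDH11, at -0.28 below and -0.18 above, had the same sign but a far smaller difference, and the part of the marker shift in it was not tested.

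The other marker lists also had more negative than positive values below the lesion. Microglia and macrophage markers had a median of -0.60 below, with 4 of 6 listed lower and sums of 776 and 517, and of -0.26 above, with 3 of 8 lower and sums of 767 and 633. Schwann cell markers had a median of -0.54 below (3 of 5 lower, sums of 500 and 458) and 0.06 above (0 of 3, sums of 518 and 483). Astrocyte markers had medians of -0.18 below (2 of 8 lower, sums of 17600 and 14100) and -0.21 above (0 of 8, sums of 19300 and 16100). GFAP alone had 11100 and 8490 of the sums below. Oligodendrocyte markers had medians of -0.09 below (3 listed, sums of 11000 and 10300) and -0.13 above (4 listed, sums of 12000 and 11500), with 0 past the limit. MOBP alone had 10400 and 9720 of the sums below. Oligodendrocyte precursor markers had medians of -0.16 below (0 of 5, sums of 385 and 382) and -0.12 above (1 of 5 lower, sums of 431 and 385), and endothelial markers of -0.13 below (0 of 7, sums of 264 and 253) and 0.04 above (1 of 7 higher, sums of 208 and 215). No listed marker was at the floor of 1, but some lay near it. Examples are PMP2 below the lesion (2.22 and 1.53), and LUM (2.67 and 1.86) and COL3A1 (5.25 and 1.73) above it. Myelin was checked by MOG, MOBP and CLDN11 at both sites and by UGT8A above the lesion.

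**Figure D4:**
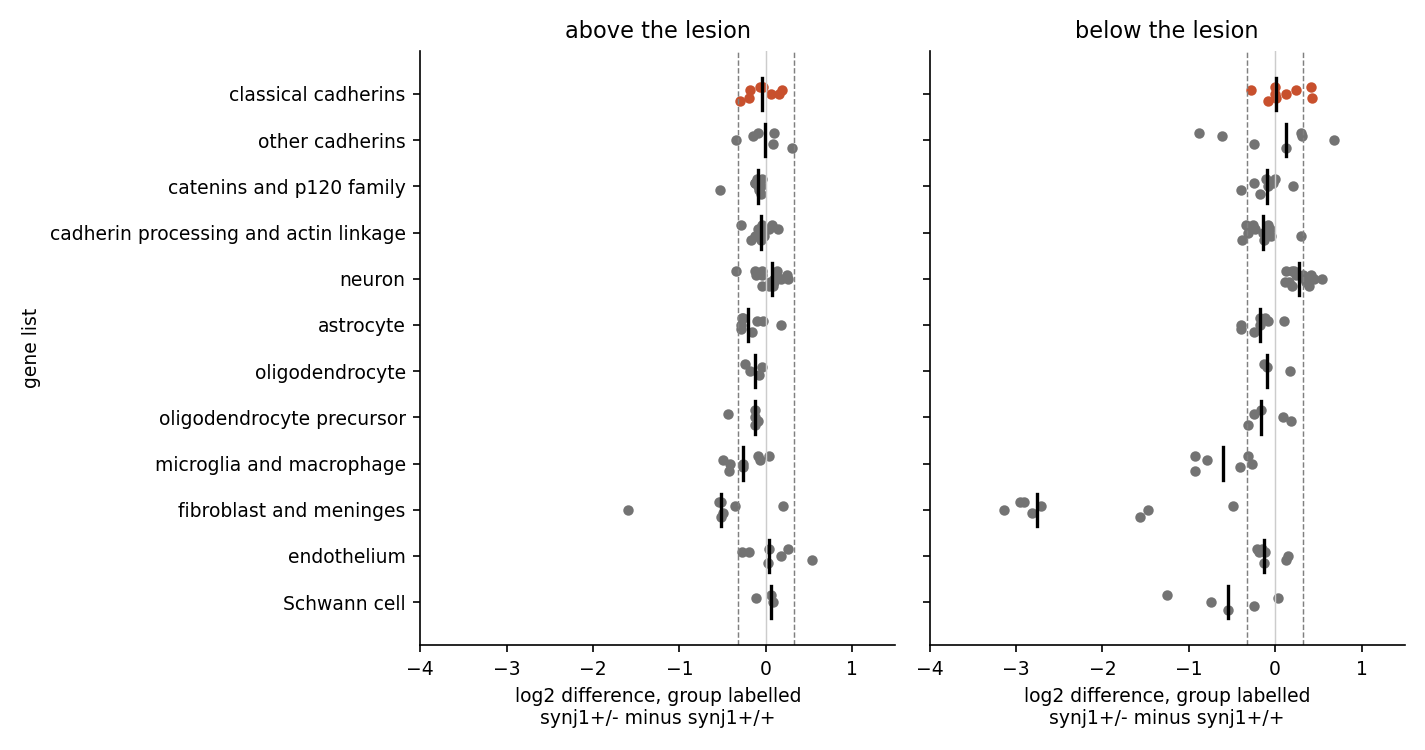
Log2 difference (group labelled synj1+/- minus synj1+/+) of each listed gene of 12 gene lists, above the lesion (left) and below it (right). The chosen cadherins are in orange, named classical cadherins in the figure. The list of other cadherins also holds type II ones such as CDH18. Each point is 1 gene, black bars are list medians and dashed lines mark the limit of 0.32. Below the lesion the neuron markers all lie right of 0 and the fibroblast and meningeal markers all lie left of it, while the chosen cadherins straddle it.

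Cadherins outside the chosen group were spread more widely below the lesion. Of 10 others, 7 were listed there, with 1 higher, 2 lower and a median log2 difference of 0.12. Among all genes below the lesion 8.06% were higher and 11.5% lower, and the counts were not tested against these shares. CDH18, the chromosome 15 neighbor of CDH12, had 41.3 in synj1+/+ and 66.1 in the group labelled synj1+/-, 1.6-fold higher (log2 difference 0.68), and 57.3 and 51.6 above the lesion (-0.15). Its pattern of a lower value above and a higher one below is that of CDH4. CDH6 had the same signs, but its values above were nearly level (18.7 and 17.9, -0.07). CDH5 (VE-cadherin of endothelial junctions) was lower below the lesion, with 16.1 and 10.6 (-0.61), and CDH1 (E-cadherin of epithelia) had 2.74 and 1.49 (-0.88), near the floor of 1. Above the lesion 6 were listed and 1 was lower, where 4.18% of all genes were higher and 7.45% lower. It was CDH19, a cadherin of the Schwann cell lineage and the neighbor of CDH7, with 39.8 and 31.4 (-0.34). Along chromosome 15 the differences below the lesion were 0.24 for CDH6, 0.00 for CDH10, 0.13 for CDH12 and 0.68 for CDH18, so these neighbors did not share 1 size of difference.

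The cytoplasmic partners of the cadherins mostly had slightly lower values under the label synj1+/-. Above the lesion all 9 catenins and p120 relatives had a log2 difference below 0, with a median of -0.09, where that of all genes was 0.00. There 1 was past the limit, CTNNA3 (an α-catenin best known from heart), with 23.3 and 16.1 (-0.53), and 7.45% of all genes were lower. Below the lesion 8 were listed, 6 had a difference below 0, and the median was -0.09, where that of all genes was 0.01. CTNNA3 was again the 1 past the limit, with 16.7 and 12.8 (-0.39), where 11.5% of all genes were lower. CTNNA2, the α-catenin of neurons, was the partner with the largest positive value below the lesion, 131 and 151 (0.21), where CTNNA1, the widely expressed one, had 114 and 95.3 (-0.25). CTNNB1 (β-catenin) had 713 and 633 below (-0.17) and 624 and 599 above (-0.06).

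A list of 12 genes was taken for cadherin processing and actin linkage. Of these, CTNNBIP1 neither cuts cadherins nor connects them to actin. Above the lesion 0 of 12 passed the limit, where 4.18% of all genes were higher and 7.45% lower. The median log2 difference of the list was -0.05. Within the list TJP1, a junctional scaffold, had the largest difference there (345 and 282, -0.29). Below the lesion 11 were listed, 0 were higher and 2 lower, with a median of -0.14, where 8.06% of all genes were higher and 11.5% lower. These were LIMA1, an actin-binding protein of the junction (58.9 and 45.3, -0.38), and VCL, the actin linker vinculin (26.1 and 20.6, -0.34). PSEN2, a subunit of the γ-secretase that cuts cadherin tails, was just short of the limit before rounding (76.4 and 61.2, -0.32). CTNNBIP1 was the 1 gene of the list with a positive difference below the lesion (49.4 and 60.9, 0.30), also within the limit.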

How the data were processed

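The 12 RNA-seq libraries were assigned to groups from the labels, by genotype and by side of the lesion. The authors' deposited table lists, per gene and site, 1 value per genotype, read as FPKM plus 1. Levels climb with transcript number, so the values may be sums over transcript models, which was not tested. The remaining columns hold the authors' fold changes, p-values and q-values, which were not used, and neither was their shorter list. Per the study's methods, reads were randomly reduced to the smallest library of each site, aligned and upper quartile normalized; the library kit does not mark strand, so reads of a gene and an antisense partner cannot be told apart. The submitters' processing notes name STAR 2.5.4b, Cuffdiff 1.3.0 and GRCm38.p6. The gene annotation is not given in the sources used here. The table does not show the depth of any library.

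The log2 ratios, counts past 1.25-fold, medians and ranks were computed with Python 3.11.15, numpy 2.4.6 and pandas 2.3.3. The log2 ratio and the 1.25-fold limit were tried on simulated fold changes put into the synj1+/+ values. The medians, ranks and site comparisons were not checked in this way. No test was computed, since single-library values were not used here and each group has 1 pooled value. The genes and lists were chosen with earlier results of these data known. All 10 cadherins were named. Genes of the other lists were named from those past 1.25-fold or from the 2 with the largest absolute difference among values of at least 10. Not every gene that qualifies is named. CTNNA2, CTNNB1, PSEN2 and CTNNBIP1 were named after their values were seen. MOBP, named for its part in the sums, and UGT8A, named as a listed myelin marker, are also outside this rule. Alternatives were 1 subtracted and 0.1 added, folds of 1.2 and 1.5, values of at least 10, centring on the median gene, and division by the group sum. Gene positions came from GENCODE M21 and promoters from RefSeq, both on GRCm38.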

Additional observations from a re-analysis of the deposited data

Results flagged for a closer look

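Under the label synj1+/-, CDH4 had a lower value than in synj1+/+ above the lesion and a higher one below it, each time by more than 1.1-fold. The genotype difference below minus that above was 0.71 on the log2 scale. It rests on 4 pooled values between 12.8 and 17, and the difference between the sites was not tested.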

How the results depend on the processing

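Only the fold that counts a gene as higher or lower altered a count. At 1.2-fold, 1 of 8 cadherins was lower above the lesion (CDH4), where 10.5% of all genes were lower. Below the lesion 1 of 9 was lower (CDH11), against 14.9% of all genes. In the difference below minus above, 3 of 8 were higher (CDH4, CDH6 and CDH8), against 14.6%. In the group labelled synj1+/-, 1 of 8 was higher below than above the lesion (CDH4), against 8.39%. The counts were not tested against these shares. At 1.5-fold, 0 were higher below the lesion, against 1.16% of all genes. In synj1+/+, 0 were lower below than above, against 1.34%. CDH4 was still counted in the difference below minus above, where 2.29% of all genes were higher. Of 116 log2 values of single genes under the other scalings, 0 moved by 0.1 or more, 0 of those past the limit changed sign, and the largest movement was 0.05. Values near 0 did change sign below the lesion, where division by the group sum gave -0.02 for CDH2 and -0.03 for CDH7, and centring on the median gene gave -0.01 for CDH7. Among all genes below the lesion, the share counted as higher ranged from 1.16% at 1.5-fold to 12.6% at 1.2-fold. Leaving out single libraries was not run, since each group has 1 pooled value. No paired analysis was possible because the table has 0 columns of single samples.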
